A study of Homo sapiens with 24 samples.

Results

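Human genes for zinc finger proteins are mostly named ZNF, and chromosome 19 holds a large share of them in clusters. All 249 protein-coding genes of chromosome 19 whose symbol begins with ZNF are described here, out of 58302 genes in the expression table of A549 cells. They were picked by gene type, symbol and locus, and no expression value was used. A549 is an established lung cancer line. The series asked how GPD1, the cytosolic glycerol-3-phosphate dehydrogenase, acts on cancer cells with and without metformin, a biguanide drug for diabetes that acts on the respiratory chain. Polyadenylated RNA was sequenced from 4 groups of 3 A549 libraries. GPD1 metformin cells carried a lentivirus for GPD1 overexpression and were cultured with 10 mM metformin. Vector metformin cells carried a blank lentivirus and had the same metformin. GPD1 untreated cells carried the GPD1 lentivirus and had no metformin, and vector untreated cells carried the blank lentivirus and had none. All groups thus share a lentiviral transduction. The time in metformin, the promoter of the transgene, any selection of clones and whether the replicates were separate cultures are not given in the labels, so every p-value rests on the spread between these libraries, and that spread may be technical. Another 12 samples come from 786-O kidney cancer cells and were not analysed here.

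Most proteins of this family bind DNA through a row of tandem zinc fingers, and many carry a KRAB domain at their start. The KRAB domain binds TRIM28, a scaffold that brings in the histone methyltransferase SETDB1 and HP1 proteins, and the bound site becomes heterochromatin. Many of these proteins are known for silencing retrotransposons, and the genes themselves arose by repeated duplication, which is why related copies lie side by side on chromosome 19.

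Promoter sequences from RefSeq (GRCh38.p14) were matched by symbol for 217 of the 249 genes. The 3 shown here belong to genes that the results turn on, as 250 bases upstream of the annotated start on the plus strand. ZNF460 (chr19:57279732-57279981) was raised by metformin in both kinds of cells and by more in vector cells. ZNF526 (chr19:42220062-42220311) had the largest difference in log2(FPKM + 1) between GPD1 and vector cells in its change with metformin among the 48 genes tested. ZNF93 (chr19:19900696-19900945) was listed at 0 in every library. Capitals mark the motif matches in ZNF460, which are the core TGACG, the E-box CACGTG and, read on the other strand, the composite site TGATGNAA. Capitals mark CG dinucleotides in ZNF526 and ZNF93.
ZNF460: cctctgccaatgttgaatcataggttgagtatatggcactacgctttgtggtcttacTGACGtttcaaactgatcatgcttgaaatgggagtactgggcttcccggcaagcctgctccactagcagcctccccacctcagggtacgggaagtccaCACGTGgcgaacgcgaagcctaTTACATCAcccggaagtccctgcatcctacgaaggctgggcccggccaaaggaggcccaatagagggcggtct
ZNF526: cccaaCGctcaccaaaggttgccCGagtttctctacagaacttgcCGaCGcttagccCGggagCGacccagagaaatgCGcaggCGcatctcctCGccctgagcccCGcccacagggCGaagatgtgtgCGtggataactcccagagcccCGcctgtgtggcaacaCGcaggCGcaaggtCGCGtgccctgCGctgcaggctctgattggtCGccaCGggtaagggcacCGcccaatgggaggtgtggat
ZNF93: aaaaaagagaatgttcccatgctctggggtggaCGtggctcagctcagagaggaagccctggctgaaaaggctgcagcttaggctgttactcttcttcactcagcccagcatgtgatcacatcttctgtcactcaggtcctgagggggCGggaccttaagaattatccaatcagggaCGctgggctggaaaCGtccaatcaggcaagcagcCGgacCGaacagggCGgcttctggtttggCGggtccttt

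ZNF526 held 21 CG dinucleotides in these 250 bases and ZNF93 held 8. Over all RefSeq promoters (35116 entries) the median was 11. The 44 matched genes averaging 1 FPKM or more (fragments per kilobase of transcript, scaled to the mapped total of the library) had a median of 17.5, and the 50 matched genes listed at 0 in every library had a median of 12. Both strands were searched for 4 motifs. TGACG, the core of the cyclic AMP response element, was in 31.8% of the 44, in 12% of the 50 and in 21.2% of all promoters. CACGTG, the E-box of MYC and related factors, was in 9.09% of the 44, in 2% of the 50 and in 6.34% of all promoters. TGATGNAA, a composite site of ATF4 and CEBP factors, was in 2.27%, 4% and 3.14% of these sets. TATAAA was in 0 of the 44, in 2% of the 50 and in 10.7% of all promoters. These are letter matches in a window and show no binding.

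The 12 libraries were 13.3 to 18.0 M reads or fragments deep, as read from the steps between low values, so 1 read on a transcript of 1 kb was worth 0.0556 to 0.0752 FPKM. The cells carried the markers of A549, and markers of the other line in the series were low. KRT8, KRT18, AKR1C1, AKR1B10, ALDH1A1 and ALDH3A1 were at 36.2 FPKM or more in every library, and CDKN2A, which is deleted in this line, was listed at 0. Of the 4 markers of the kidney line, PAX8 reached at most 0.162 FPKM, PAX2 was 0.457 to 2.48, CA9 1.59 to 3.52 and CDH6 0.200 to 1.96 FPKM. Of the blood and stroma genes, HBB was listed at 0, PTPRC reached at most 0.0299 FPKM and COL1A1 was 2.24 to 5.41 FPKM. GPD1 itself was 13.3 to 13.8 FPKM in GPD1 metformin, 0.0248 to 0.0702 FPKM in vector metformin, 15.1 to 16.8 FPKM in GPD1 untreated and 0.0408 to 0.103 FPKM in vector untreated libraries. Mitochondrial transcripts took 10.3% to 11.4% of the summed FPKM in the GPD1 metformin group, 13.7% to 14.9% in vector metformin, 30.2% to 32.3% in GPD1 untreated and 32.9% to 33.2% in vector untreated libraries. FPKM is relative to each library's total, and this share was lower with metformin, so scalings that handle it differently are given where they change a call. The part of the mitochondrial share in any result was not tested. In bulk RNA, fewer cells that express a gene and less RNA per cell cannot be told apart.

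Of the 249 genes, 186 had a value above 0 in at least 1 library and 63 (25.3%) were listed at 0 in all 12. Detected in all 3 libraries of at least 1 group were 166 genes. The median gene averaged 0.172 FPKM over the 12 libraries, 48 genes (19.3%) averaged at least 1 FPKM and 7 averaged at least 10. The ZNF genes of other chromosomes were at higher levels, with 20 of 265 (7.55%) listed at 0 and 127 (47.9%) at 1 FPKM or more. The other protein-coding genes of chromosome 19 had 138 of 1218 (11.3%) at 0 and 638 (52.4%) at 1 FPKM or more. Zinc finger genes of chromosome 19 with other names (ZFP, ZSCAN, ZBTB, ZIM, ZIK and PEG3) numbered 19, with 4 at 0 and 5 at 1 FPKM or more.

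**Figure D1:**
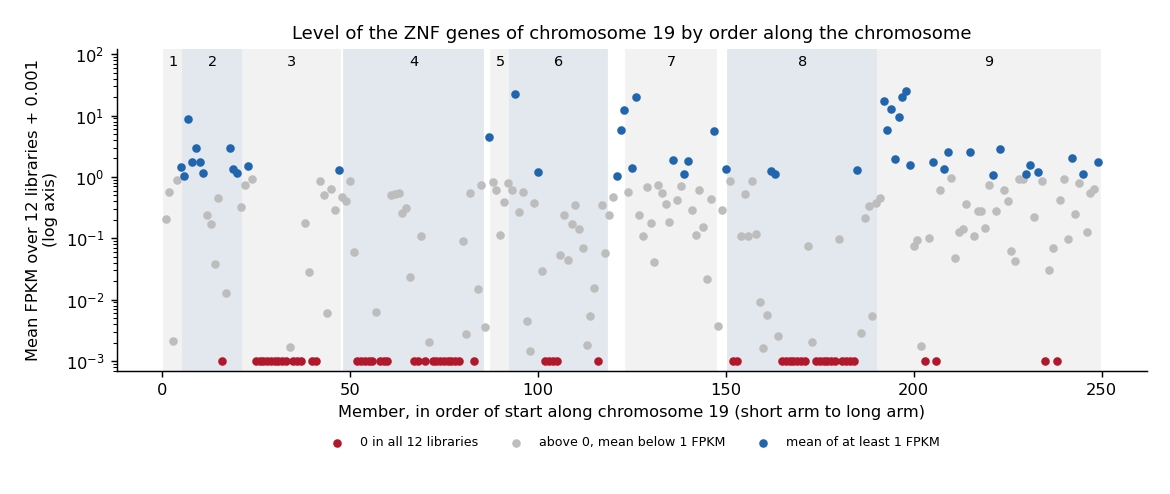
Mean FPKM over 12 libraries (log axis, with a small constant added so that 0 can be drawn) of each of the 249 genes, in order of start along chromosome 19. Shaded bands number the 9 clusters, red points are the 63 genes at 0 in every library, and blue points are the 48 genes averaging 1 FPKM or more, of which cluster 9 holds 20 and cluster 2 holds 9.

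Position went with expression. Runs of these genes less than 1 Mb apart formed 9 clusters of at least 5 genes, which held 238 of the 249 and all 63 of the genes at 0. Cluster 4 (chr19:19668796-24129961, ZNF101 to ZNF254) had 20 of 37 genes at 0 and no gene at 1 FPKM. Cluster 3 (chr19:11483427-12640098, ZNF653 to ZNF791) had 14 of 26 at 0, and cluster 8 (chr19:51571298-53580269, ZNF175 to ZNF331) had 19 of 40. At the other end of the range, cluster 7 (chr19:43525497-45076588, ZNF575 to ZNF296) had 0 of 24 at 0 and 6 at 1 FPKM or more. Cluster 9 (chr19:55476332-58481230, ZNF628 to ZNF446) had 4 of 59 at 0 and 20 at 1 FPKM or more, and cluster 2 (chr19:7069444-9793180, ZNF557 to ZNF846) had 1 of 16 at 0 and 9 at 1 FPKM or more.

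Most of the genes at 0 lay beside another gene at 0, while 8 of the 63 had none next to them. The longest unbroken run was 9 genes from ZNF441 to ZNF878 in cluster 3, over 286 kb. A run of 8 from ZNF676 to ZNF730 in cluster 4 spanned 968 kb, 7 from ZNF880 to ZNF83 in cluster 8 spanned 321 kb, and 6 from ZNF28 to ZNF816, also in cluster 8, spanned 166 kb. In cluster 3, 14 of 26 ZNF genes were at 0, against 2 of 11 other protein-coding genes, though these others were low too, with a median of 0.0779 FPKM and 2 of them at 1 FPKM or more. In cluster 8, 19 of 40 ZNF genes and 9 of 15 others were at 0. How reads that match several places were treated is not given in the sources used here. Of the 63 genes at 0, 8 shared at least 50% of their 50-base stretches with other transcripts, as did 9 of the other 186. The part of shared sequence in the zeros was not tested.

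**Figure D2:**
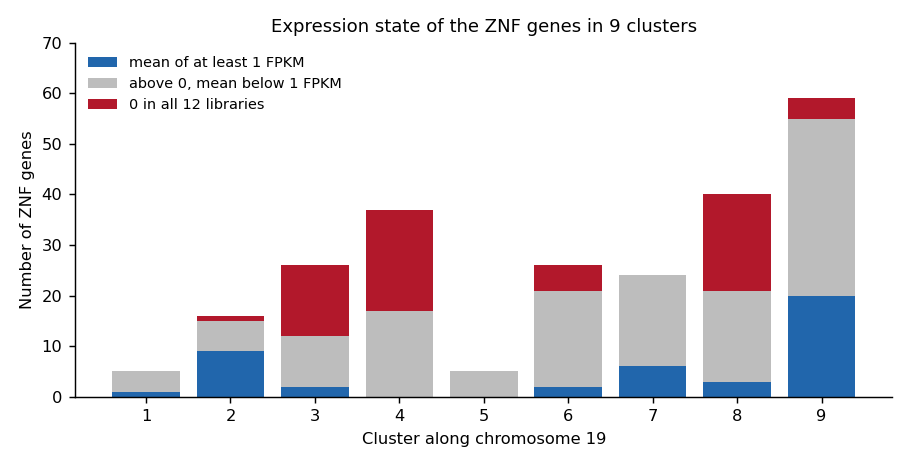
Number of ZNF genes in each of the 9 clusters along chromosome 19, split by state over the 12 libraries. Red marks genes at 0 in all libraries (14 of 26 in cluster 3, 20 of 37 in cluster 4, 19 of 40 in cluster 8) and blue marks genes averaging 1 FPKM or more (9 of 16 in cluster 2, 20 of 59 in cluster 9).

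The number of these genes above 0 was lowest in GPD1 metformin libraries, as it was over all genes. A GPD1 metformin library had 151 to 156 of them above 0, a vector metformin library 165 to 167, a GPD1 untreated library 162 to 168 and a vector untreated library 171 to 174. Over all 58302 genes the numbers were 23472 to 23993 in GPD1 metformin, 24688 to 25099 in vector metformin, 25471 to 26739 in GPD1 untreated and 26249 to 26704 in vector untreated libraries, with GPD1 metformin again the lowest. Genes with a group mean of at least 1 FPKM numbered 27 in GPD1 metformin, 46 in vector metformin, 54 in GPD1 untreated and 62 in vector untreated cells. The summed level of all 249 genes ran the other way in vector cells, at 328 to 362 FPKM with metformin and 249 to 262 FPKM without. In GPD1 cells the sum was 229 to 233 FPKM with metformin and 238 to 250 FPKM without. In FPKM as deposited, the metformin group thus had fewer genes above 1 FPKM in both kinds of cells, and in vector cells a larger summed level. All genes with a group mean of at least 1 FPKM were not counted, so whether this is particular to the ZNF genes was not tested. That larger sum came with the 7 genes averaging at least 10 FPKM. Without these the sum was 151 to 173 FPKM in vector metformin and 153 to 164 FPKM in vector untreated libraries, which overlap as deposited. Without mitochondrial genes in the totals, values are divided by 1.06 to 1.11 and 0.884 to 0.886 in these groups, which puts vector metformin lower. Median-ratio factors (0.926 to 0.966 and 1.11 to 1.16) put it higher, so the order depends on the scaling. In GPD1 cells the sum without these was 91.0 to 95.1 FPKM with metformin and 137 to 148 FPKM without metformin.

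The 5 highest genes were ZNF787, ZNF146, ZNF428, ZNF581 and ZNF579, with means over the 12 libraries of 25.2, 22.3, 20.2, 20.2 and 17.2 FPKM. They stand far above the median gene of the family, and ZNF787, ZNF581 and ZNF579 lie in cluster 9. ZNF146, a protein made almost wholly of zinc fingers, was 16.49, 16.96 and 15.86 FPKM in GPD1 metformin, 20.76, 19.02 and 14.88 in vector metformin, 26.8, 27.3 and 26.0 in GPD1 untreated and 28.1, 28.2 and 26.7 FPKM in vector untreated libraries. Every metformin library was below every untreated one. The log2 fold change with metformin was −0.67 ± 0.09 in GPD1 cells (SE, limma adjusted p = 6.16e-05), a call that ended with upper-quartile factors (−0.21), and −0.59 ± 0.09 in vector cells (adjusted p = 0.000157).

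The genes singled out for their textbook roles were mostly low. ZNF91 and ZNF93, which silence SVA and LINE retrotransposons, lie in cluster 4. ZNF93 was listed at 0 throughout, and ZNF91 was above 0 in 3 of 12 libraries with at most 0.00972 FPKM. ZNF274, which brings SETDB1 to the ends of zinc finger genes, averaged 0.933 FPKM, and ZNF331, an imprinted gene, averaged 0.373 FPKM. ZNF473, a subunit of the U7 particle that processes histone transcripts, was 0.793, 0.744 and 0.731 FPKM in GPD1 metformin, 1.76, 1.55 and 1.34 in vector metformin, 1.49, 1.40 and 1.67 in GPD1 untreated and 1.58, 1.69 and 1.55 FPKM in vector untreated libraries. The GPD1 metformin libraries were the low ones, with no overlap with any other group. Its log2 fold change with metformin was −0.52 ± 0.07 in GPD1 cells (adjusted p = 5.09e-05) and −0.03 ± 0.07 in vector cells, where it was not called.

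Changes were tested for the 48 genes whose mean of all 12 libraries was 1 FPKM or more, with limma on log2(FPKM + 1) fitted to all 12607 genes that passed the same filter, and called at an adjusted p under 0.05. Of the 48, 24 were at or above 1 FPKM in every group and 24 were below it in at least 1 group. A further 23 genes had a group mean of at least 1 FPKM and were not tested. The values nearest the threshold were ZNF543 at 0.956 FPKM below it and ZNF780A at 1.03 FPKM above it. Fold changes on this scale are smaller than ratios of FPKM for low genes.

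Metformin in vector cells raised 23 and lowered 15 of the 48 genes. The split was 26 and 11 by median-ratio factors, 26 and 10 by upper-quartile factors, and 16 and 20 once mitochondrial genes were left out of the totals, so which direction held more genes depends on the scaling. Over all tested genes 31.3% were called higher and 43.3% lower, and 40 of the 48 genes had treated and untreated libraries that did not overlap, against 76.6% of all genes. The median log2 fold change was 0.21 for the 48 genes and −0.10 for all genes. Relative to the median of all genes, the 48 stood 0.26 to 0.37 higher under the 4 scalings tried, while the median of all genes itself ranged from −0.34 to 0.10. Of the 24 genes that were above 1 FPKM in every group, 15 were called higher and 5 lower. These counts cover the genes that passed the filter, and among the weaker genes described further on more were called lower than higher. ZNF584, ZNF699 and ZNF805 reached 1 FPKM in vector metformin cells only, so their rise was built in.

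The genes raised most were ZNF296, ZNF579, ZNF460, ZNF526 and ZNF581. ZNF296 (chr19:45071500-45076588), whose mouse counterpart acts in reprogramming to pluripotency, was 11.9, 11.7 and 12.3 FPKM in vector metformin and 1.84, 1.88 and 1.68 FPKM in vector untreated libraries. The groups were wide apart, with a ratio of 6.65 and a log2 fold change of 2.21 ± 0.07 (SE, adjusted p = 9.45e-10). ZNF460 (chr19:57280051-57293569) was 5.63, 5.14 and 5.96 FPKM in vector metformin and 1.10, 1.07 and 0.874 FPKM in vector untreated libraries. Each treated value was over every untreated one, and the log2 fold change was 1.71 ± 0.10 (adjusted p = 5.92e-08). ZNF526 (chr19:42220271-42228201) was 26.4, 25.1 and 23.2 FPKM in vector metformin and 7.57, 7.05 and 7.42 FPKM in vector untreated libraries. Its ratio was 3.39 and its log2 fold change 1.63 ± 0.06 (adjusted p = 1.19e-09).

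ZNF579 and ZNF581, both in cluster 9 with other tested genes between them, had a low untreated library each. ZNF579 was 33.6, 31.3 and 30.9 FPKM in vector metformin and 8.78, 10.2 and 3.44 FPKM in vector untreated libraries, with a log2 fold change of 2.07 ± 0.27 (adjusted p = 3.86e-05). ZNF581 was 33.1, 33.9 and 33.9 FPKM in vector metformin and 7.15, 12.6 and 12.7 FPKM in vector untreated libraries, with a log2 fold change of 1.59 ± 0.22 (adjusted p = 5.52e-05). The groups did not overlap for either gene. The locus of ZNF581 overlaps that of ZNF580 on the same strand, and 23.4% of its exon bases are shared with other genes, so reads there may be assigned to either. ZNF787 (chr19:56087366-56121280), the highest gene of the family, was 39.8, 39.4 and 39.3 FPKM in vector metformin and 13.6, 12.6 and 12.4 FPKM in vector untreated libraries. Its replicates were the tightest of these genes (log2 fold change 1.55 ± 0.04, adjusted p = 2.00e-10).

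The genes lowered most in vector cells were ZNF587B, ZNF224, ZNF780A, ZNF552 and ZNF480. All of these but ZNF224 had means below 1 FPKM in both metformin groups. They passed the filter through the untreated groups, so a higher level there was built in. ZNF587B (chr19:57819741-57846238) was 0.356, 0.372 and 0.260 FPKM in vector metformin and 2.26, 2.65 and 2.62 FPKM in vector untreated libraries. The level with metformin was 7.62 times lower, with a log2 fold change of −1.40 ± 0.07 (adjusted p = 1.17e-08). It shares 20.5% of its 50-base stretches with other transcripts, its relative ZNF587 among them, so its own level is uncertain. ZNF780A (chr19:40069152-40090938) was 0.326, 0.264 and 0.233 FPKM in vector metformin and 1.56, 1.66 and 1.48 FPKM in vector untreated libraries, a ratio of 5.72 in favour of the untreated cells (log2 fold change −1.01 ± 0.06, adjusted p = 6.40e-08). ZNF224, a KRAB protein known to repress aldolase A, was 0.938, 0.561 and 0.854 FPKM in vector metformin and 2.26, 2.67 and 3.22 FPKM in vector untreated libraries. It fell by 1.06 on the log2 scale (SE 0.14, adjusted p = 3.93e-05), but 48.3% of its 50-base stretches occur in other transcripts, which makes it uncertain.

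**Figure D3:**
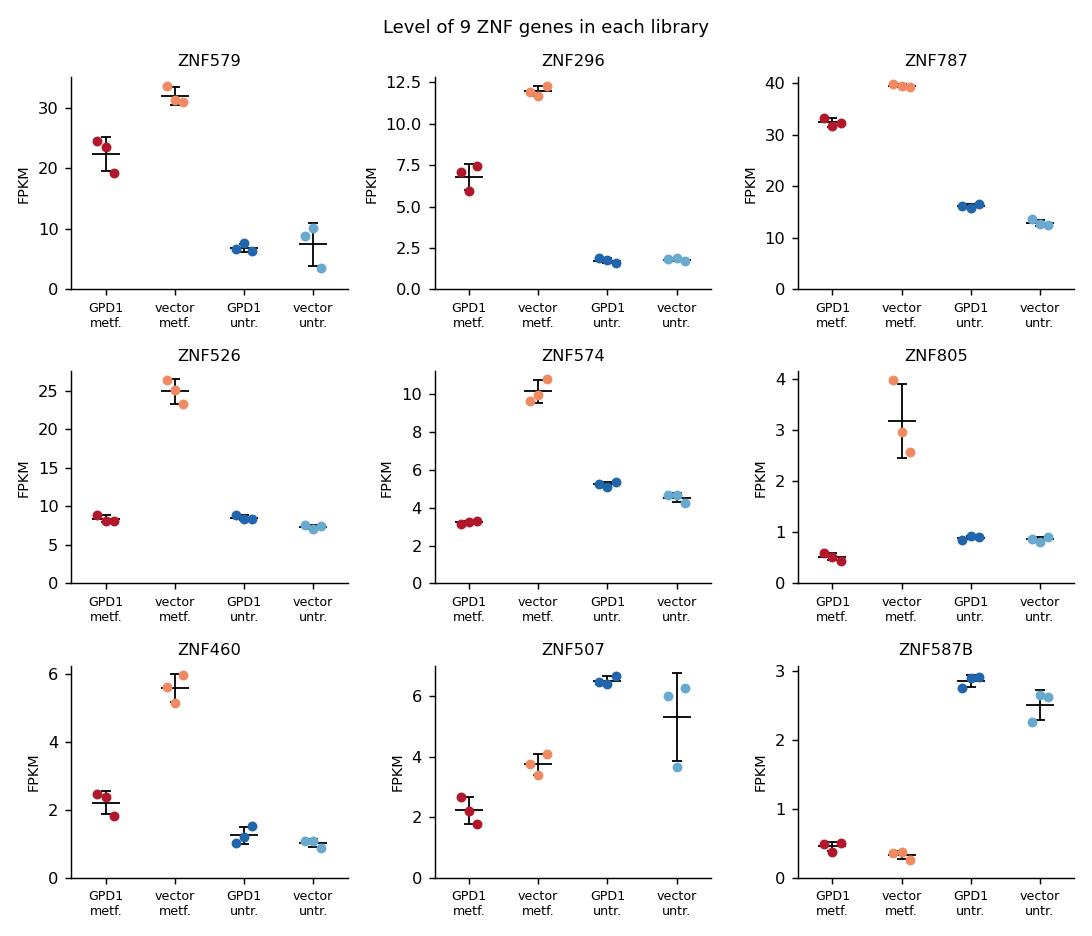
FPKM of 9 ZNF genes in each library (points), with the mean and SD of the 3 libraries of a group (bars), in GPD1 metformin, vector metformin, GPD1 untreated and vector untreated cells. The vector metformin libraries are the highest in the first 7 panels (ZNF526 23.2 to 26.4 FPKM against 7.05 to 8.94 elsewhere), and both metformin groups are low for ZNF587B.

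Metformin in GPD1 cells raised 10 and lowered 26 of the 48 genes. By median-ratio factors 13 were higher and 18 lower, by upper-quartile factors 16 and 17, and without mitochondrial genes in the totals 7 and 34. Over all tested genes 26.1% were called higher and 48.0% lower. Without overlap were 35 of the 48 genes and 77.1% of all genes. The median log2 fold change was −0.30 for the 48 genes and −0.20 for all genes, and the difference between these medians ranged from −0.25 to −0.04 over the 4 scalings. Of the 24 genes above 1 FPKM in every group, 9 were called higher and 6 lower, but 6 to 15 were higher and 4 to 12 lower over the 4 scalings, so the balance turns with the scaling.

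The genes raised most in GPD1 cells were ZNF579, ZNF296, ZNF524, ZNF787 and ZNF581. ZNF296 was 7.07, 5.93 and 7.43 FPKM in GPD1 metformin and 1.89, 1.75 and 1.56 FPKM in GPD1 untreated libraries (log2 fold change 1.51 ± 0.07, adjusted p = 1.92e-08). ZNF787 was 33.3, 31.7 and 32.3 FPKM in GPD1 metformin and 16.1, 15.9 and 16.5 FPKM in GPD1 untreated libraries (0.96 ± 0.04, adjusted p = 6.53e-09). ZNF579 was 24.5, 23.5 and 19.2 FPKM in GPD1 metformin and 6.62, 7.59 and 6.31 FPKM in GPD1 untreated libraries (1.57 ± 0.27, adjusted p = 0.000322). In all of these genes every treated library was over every untreated one. ZNF524, a protein known to bind telomere repeats, was 13.4, 7.38 and 9.09 FPKM in GPD1 metformin and 3.76, 5.85 and 3.09 FPKM in GPD1 untreated libraries (1.06 ± 0.24, adjusted p = 0.0021). Its first treated replicate stands above the rest of its group. ZNF581 was 16.5, 27.6 and 27.7 FPKM in GPD1 metformin and 13.4, 11.9 and 11.5 FPKM in GPD1 untreated libraries (0.87 ± 0.22, adjusted p = 0.00394), and this call ended when totals were taken without mitochondrial genes (0.51, adjusted p = 0.0558).

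The genes lowered most in GPD1 cells were ZNF587B, ZNF507, ZNF780A, ZNF480 and ZNF766. All of these but ZNF507 had means below 1 FPKM in both metformin groups, so they too passed the filter through the untreated groups. ZNF507 (chr19:32345594-32387667) was 2.68, 2.21 and 1.79 FPKM in GPD1 metformin and 6.47, 6.42 and 6.68 FPKM in GPD1 untreated libraries, a fall by 1.23 on the log2 scale (SE 0.16, adjusted p = 3.04e-05). ZNF587B was 0.488, 0.378 and 0.498 FPKM in GPD1 metformin and 2.75, 2.90 and 2.91 FPKM in GPD1 untreated libraries (−1.41 ± 0.07, adjusted p = 1.48e-08). ZNF480 and ZNF766 are neighbours 1.13 kb apart in cluster 8. ZNF480 was 0.346, 0.274 and 0.385 FPKM in GPD1 metformin and 2.21, 1.89 and 1.71 FPKM in GPD1 untreated libraries (−1.13 ± 0.09, adjusted p = 4.74e-07). ZNF766 was 0.382, 0.385 and 0.251 FPKM in GPD1 metformin and 2.24, 1.29 and 2.24 FPKM in GPD1 untreated libraries (−1.11 ± 0.32, adjusted p = 0.0091). Groups did not overlap for any of these genes. In vector cells ZNF766 was 1.04, 0.827 and 0.598 FPKM with metformin and 0.358, 2.53 and 2.70 FPKM without, and its change was not called (−0.53 ± 0.32, adjusted p = 0.161). Without the low untreated library the same change was −0.996 and was called.

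The 2 metformin comparisons share no library. Called higher in both were 8 genes (ZNF121, ZNF296, ZNF460, ZNF561, ZNF579, ZNF580, ZNF581 and ZNF787), which is 34.8% of the 23 raised in vector cells and 80% of the 10 raised in GPD1 cells. Over all tested genes these shares were 62.8% and 75.3%, and over the 4 scalings 5 to 15 of the 48 were higher in both. Called lower in both were 13 genes, or 86.7% of the 15 lowered in vector cells and 50% of the 26 lowered in GPD1 cells. Over all tested genes these shares were 81.0% and 73.1%, and over the 4 scalings 8 to 18 of the 48 were lower in both. Among those lower in both, ZNF416, ZNF480, ZNF552, ZNF587, ZNF587B and ZNF780A had means below 1 FPKM in both metformin groups. They passed the filter through the untreated groups, where they were high. A further 8 were called higher in vector cells and lower in GPD1 cells, namely ZNF134, ZNF317, ZNF557, ZNF567, ZNF574, ZNF584, ZNF805 and ZNF865. ZNF584 and ZNF805 reached 1 FPKM in vector metformin cells only, so they passed the filter through the group where they were high and had to differ. With them counted, that is 34.8% of the genes raised in vector cells, where over all tested genes the share was 15.3%. With median-ratio factors it was 19.2% against 9.47%, by upper-quartile factors 19.2% against 6.73%, and with mitochondrial genes left out of the totals 56.2% against 20.8%. ZNF134, ZNF557 and ZNF574 were among these genes under all 4 scalings. ZNF557 averaged 1.04 FPKM over the 12 libraries, close to the filter. Its mean was 2.01 FPKM in vector metformin, 0.313 in GPD1 metformin, 0.739 in GPD1 untreated and 1.09 in vector untreated cells. It thus passed the filter only with its vector metformin libraries, where it was high, so a difference was partly built in. No gene was called lower in vector cells and higher in GPD1 cells, except 1 with median-ratio factors.

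**Figure D4:**
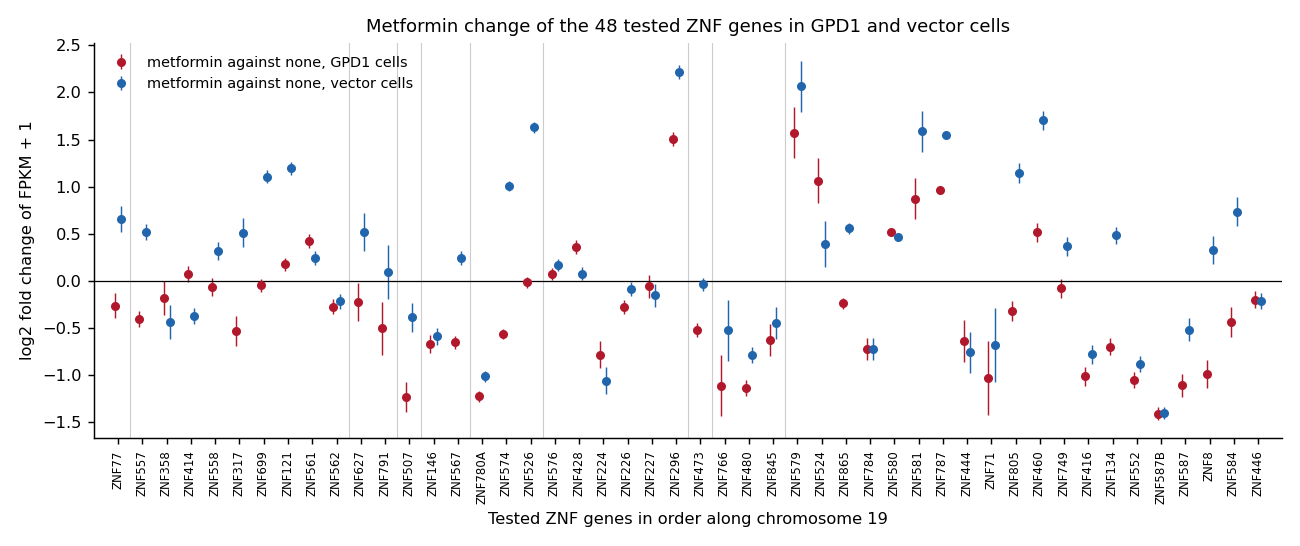
Log2 fold change of FPKM + 1 with metformin (points, with standard errors) of the 48 tested ZNF genes in GPD1 cells (red) and vector cells (blue), in order along chromosome 19, with vertical lines between clusters and stretches outside them. ZNF526 (−0.01 in GPD1 cells and 1.63 in vector cells) and ZNF574 (−0.56 and 1.01) are the pair furthest apart, and ZNF580 (0.51 and 0.47) and ZNF587B (−1.41 and −1.40) lie on top of each other.

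The difference between the cells was tested as the interaction, the change with metformin in GPD1 cells minus that in vector cells. It was called lower for 22 and higher for 2 of the 48 genes, where 26.8% of all tested genes were lower and 19.1% higher. The median was −0.46 for the 48 genes and −0.04 for all genes, and the distance between these medians stayed between −0.44 and −0.39 over the 4 scalings. The genes with the largest differences were ZNF526, ZNF574, ZNF805, ZNF8 and ZNF460.

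ZNF574 and ZNF526 lie 139 kb apart on the same strand, outside the 9 clusters. ZNF574 (chr19:42068477-42081549) was 3.11, 3.25 and 3.29 FPKM in GPD1 metformin, 9.62, 9.95 and 10.8 in vector metformin, 5.23, 5.10 and 5.34 in GPD1 untreated and 4.66, 4.68 and 4.24 FPKM in vector untreated libraries. No library of any group overlaps another group, with vector metformin the highest and GPD1 metformin the lowest. The interaction was −1.57 ± 0.07 (adjusted p = 3.40e-07). ZNF526 was 8.94, 8.16 and 8.16 FPKM in GPD1 metformin and 8.90, 8.30 and 8.34 FPKM in GPD1 untreated libraries, which overlap, beside the rise in vector cells given above. Its interaction was −1.65 ± 0.08 (adjusted p = 3.57e-07). In GPD1 cells the change of ZNF526 was −0.01 as deposited, 0.29 by median-ratio factors, 0.42 by upper-quartile factors and −0.36 once mitochondrial genes were left out of the totals, so its direction there depends on the scaling.

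ZNF805 and ZNF460 are neighbours 24.9 kb apart in cluster 9. ZNF805 (chr19:57240685-57255135) was 0.589, 0.525 and 0.448 FPKM in GPD1 metformin, 3.96, 2.96 and 2.56 in vector metformin, 0.853, 0.921 and 0.914 in GPD1 untreated and 0.868, 0.818 and 0.900 FPKM in vector untreated libraries. It was lowest of the 4 groups with metformin in GPD1 cells and highest with metformin in vector cells, and its interaction was −1.47 ± 0.15 (adjusted p = 2.09e-05). It passed the filter through vector metformin alone, so this difference is a description of a gene that had to be high there. ZNF460 was 2.46, 2.37 and 1.82 FPKM in GPD1 metformin and 1.03, 1.19 and 1.51 FPKM in GPD1 untreated libraries, a rise that was smaller than the one in vector cells (interaction −1.19 ± 0.14, adjusted p = 7.07e-05). ZNF8 (chr19:58278951-58302805) was 0.533, 0.449 and 0.460 FPKM in GPD1 metformin, 4.36, 3.50 and 2.18 in vector metformin, 1.99, 1.89 and 1.91 in GPD1 untreated and 2.30, 2.59 and 2.25 FPKM in vector untreated libraries. The GPD1 metformin libraries were far under all others (interaction −1.32 ± 0.21, adjusted p = 0.000474), and 21.1% of its 50-base stretches are shared with other transcripts.

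The genes with a positive interaction were ZNF414 and ZNF428. ZNF414 was 1.91, 1.85 and 2.19 FPKM in GPD1 metformin, 1.12, 1.38 and 1.43 in vector metformin, 2.11, 1.64 and 1.78 in GPD1 untreated and 2.15, 1.88 and 1.93 FPKM in vector untreated libraries. It was low in vector metformin cells only (interaction 0.44 ± 0.12, adjusted p = 0.00923). ZNF428 was 24.72, 25.03 and 25.90 FPKM in GPD1 metformin, 16.98, 19.45 and 19.01 in vector metformin, 18.6, 19.2 and 20.5 in GPD1 untreated and 19.5, 16.1 and 16.8 FPKM in vector untreated libraries. It was highest in GPD1 metformin cells, but its interaction of 0.28 ± 0.10 (adjusted p = 0.043) was lost under 13 alternatives, and its rise with metformin in GPD1 cells became −0.01 with totals taken without mitochondrial genes. Other genes share 27.6% of its exon bases.

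GPD1 under metformin, the comparison of GPD1 metformin with vector metformin cells, lowered 26 and raised 3 of the 48 genes, and by upper-quartile factors 21 were lower and 7 higher. Over all tested genes 35.0% were called lower and 25.0% higher, and 35 of the 48 had no overlap, against 64.8% of all genes. The median was −0.48 for the 48 genes and −0.05 for all genes, with −0.50 to −0.39 between them over the 4 scalings. Of the 24 genes above 1 FPKM in every group, 12 were lower and 3 higher. ZNF584, ZNF699 and ZNF805, among those lowered, reached 1 FPKM in vector metformin cells only, so their decrease was built in. The largest decreases were those of ZNF8 (−1.52 ± 0.15), ZNF526 (−1.46 ± 0.06), ZNF805 (−1.44 ± 0.10), ZNF121 (−1.41 ± 0.07) and ZNF574 (−1.40 ± 0.05), all with adjusted p of 6.77e-06 or less and without overlap. Most of them have been shown library by library above, and for ZNF526, ZNF805 and ZNF574 the vector metformin libraries were above all others. For ZNF8 they overlapped the untreated libraries. ZNF121 (chr19:9560353-9584533) was 1.61, 1.89 and 1.86 FPKM in GPD1 metformin, 7.05, 6.38 and 5.82 in vector metformin, 1.48, 1.46 and 1.43 in GPD1 untreated and 2.21, 2.09 and 2.39 FPKM in vector untreated libraries. Its small rise with metformin in GPD1 cells (0.18 ± 0.07, adjusted p = 0.0354) became −0.06 with totals taken without mitochondrial genes. The 3 genes called higher were ZNF524 (0.79 ± 0.24, adjusted p = 0.0154), ZNF428 (0.43 ± 0.07, adjusted p = 0.000402) and ZNF414 (0.37 ± 0.08, adjusted p = 0.00244). Without its high library the change of ZNF524 was 0.57 and was no longer called (adjusted p = 0.0623).

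GPD1 without metformin, the comparison of GPD1 untreated with vector untreated cells, changed few of these genes. It raised 4 and lowered 4 of the 48 (3 and 5 without mitochondrial genes in the totals), where 9.99% of all tested genes were called higher and 11.3% lower. Without overlap were 20 of the 48 and 41.4% of all genes. The median was −0.01 for the 48 and −0.01 for all genes. ZNF787 was higher, at 16.1, 15.9 and 16.5 FPKM in GPD1 untreated and 13.6, 12.6 and 12.4 FPKM in vector untreated libraries (0.31 ± 0.04, adjusted p = 0.000328). ZNF121 was lower (−0.39 ± 0.07, adjusted p = 0.00222), as was ZNF558, a KRAB protein known to repress the mitophagy gene SPATA18. ZNF558 was 2.03, 1.91 and 2.22 FPKM in GPD1 untreated and 3.54, 2.76 and 3.79 FPKM in vector untreated libraries (−0.51 ± 0.10, adjusted p = 0.00338). The groups did not overlap for any of them. The other 5 calls, of ZNF358, ZNF416, ZNF526, ZNF574 and ZNF780A, had adjusted p between 0.00989 and 0.0436 and were each lost under some alternatives. ZNF358, the largest of them, was 8.70, 7.98 and 6.75 FPKM in GPD1 untreated and 11.7, 13.7 and 11.3 FPKM in vector untreated libraries (−0.59 ± 0.18, adjusted p = 0.0436), and other genes share 34.4% of its exon bases.

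**Figure D5:**
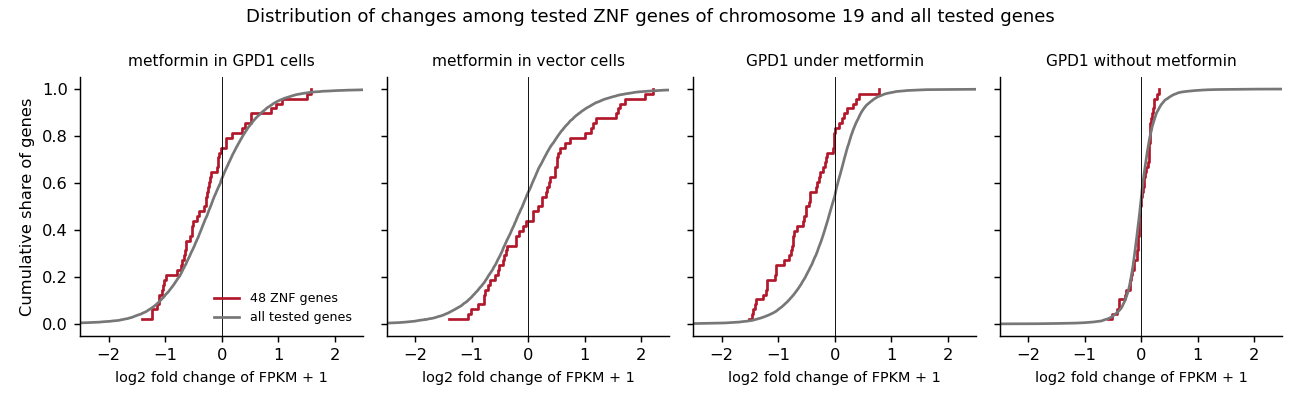
Cumulative share of genes by log2 fold change of FPKM + 1 for the 48 tested ZNF genes of chromosome 19 (red) and all 12607 tested genes (grey) in 4 comparisons. The red curve lies right of the grey one for metformin in vector cells (medians 0.21 and −0.10), left of it for GPD1 under metformin (−0.48 and −0.05) and on it for GPD1 without metformin (−0.01 and −0.01).

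Among weaker genes, most calls with metformin were decreases in both kinds of cells. The 57 genes with a mean from 0.3 to 1 FPKM were read from a fit with a pseudocount of 0.1 and a filter at 0.3 FPKM (18090 genes). That fit used FPKM as deposited and no other scaling, so whether the balance turns with the scaling was not tested. Some of the 57, such as ZNF302, ZNF607 and ZNF792, had means below 0.3 FPKM in both metformin groups. These passed the filter through the untreated groups, so a higher level there was built in and their calls add to the count lowered. Metformin in vector cells raised 8 and lowered 31 of the 57, where 25.9% of all genes in that fit were called higher and 40.2% lower. In GPD1 cells it raised 3 and lowered 42, where 20.6% were higher and 44.8% lower. GPD1 under metformin raised 1 and lowered 28 (all genes 20.1% and 29.4%), and the interaction was higher for 0 and lower for 15 (all genes 14.5% and 21.1%). GPD1 without metformin raised 0 and lowered 4 of the 57 (all genes 7.21% and 7.97%), and at these levels a few reads make up a value.

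Examples were chosen after their values were seen. ZNF302 and ZNF792, both in cluster 5 (chr19:34677639-34964049), were low in every metformin library and passed the filter through the untreated groups alone. ZNF302 was 0.0945, 0.110 and 0.0399 FPKM in GPD1 metformin, 0.180, 0.0688 and 0.0981 in vector metformin, 1.67, 1.73 and 1.63 in GPD1 untreated and 1.43, 1.77 and 0.999 FPKM in vector untreated libraries. Its log2 fold change with metformin was −3.31 ± 0.26 in GPD1 cells (adjusted p = 1.09e-06) and −2.80 ± 0.26 in vector cells (adjusted p = 3.65e-06). ZNF792 changed by −3.09 ± 0.23 in GPD1 cells and −2.64 ± 0.23 in vector cells. ZNF57 in cluster 1 was high in vector metformin libraries. It was 0.251, 0.384 and 0.526 FPKM in GPD1 metformin, 2.13, 2.41 and 2.18 in vector metformin, 0.433, 0.354 and 0.530 in GPD1 untreated and 0.362, 0.408 and 0.551 FPKM in vector untreated libraries. The interaction was −2.30 ± 0.32 (adjusted p = 0.000276). In the same fit ZNF274 was lowered by metformin in GPD1 cells (−0.77 ± 0.16, adjusted p = 0.00166) and in vector cells (−0.59 ± 0.16, adjusted p = 0.00803). ZNF331 was lowered by GPD1, both under metformin (−1.68 ± 0.28, adjusted p = 0.000512) and without it (−1.10 ± 0.28, adjusted p = 0.0227). Its means were below 0.3 FPKM in both GPD1 groups, so it passed the filter through the vector groups, where it was high.

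Summed by cluster, the levels moved in different directions. Cluster 9 summed to 128 to 129 FPKM in GPD1 metformin, 173 to 188 in vector metformin, 99.0 to 105 in GPD1 untreated and 94.9 to 107 FPKM in vector untreated libraries. In FPKM as deposited, both metformin groups were thus above both untreated groups. Cluster 5 was the reverse, at 0.640 to 0.913 FPKM in GPD1 metformin, 0.778 to 1.14 in vector metformin, 4.67 to 5.26 in GPD1 untreated and 3.85 to 5.25 FPKM in vector untreated libraries. Cluster 4, the one with most genes at 0, was 2.02 to 2.43 FPKM in GPD1 metformin, 3.67 to 4.95 in vector metformin, 5.54 to 5.996 in GPD1 untreated and 6.53 to 8.43 FPKM in vector untreated libraries. Both metformin groups were low there and GPD1 metformin the lowest. Cluster 8 had the same order, with 2.22 to 2.75, 5.39 to 6.93, 9.15 to 9.83 and 9.60 to 11.96 FPKM in these groups. All these sums are of FPKM as deposited. With totals without mitochondrial genes, values are divided by 1.16 to 1.18 in GPD1 metformin and by 0.880 to 0.902 in GPD1 untreated libraries. GPD1 metformin then no longer stands above the untreated groups in cluster 9. A sum gives most weight to high genes and is no direction of a whole cluster. In cluster 9 the highest were ZNF787, ZNF581 and ZNF579. They averaged 39.5, 33.6 and 31.9 FPKM in vector metformin, and 12.9, 10.8 and 7.47 in vector untreated. In GPD1 cells they averaged 32.4, 23.9 and 22.4 FPKM with metformin, and 16.1, 12.3 and 6.84 without.

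Within a cluster, tested genes did not move as a block. In cluster 9, metformin in vector cells raised 10 and lowered 7 of the 20 tested genes, and in GPD1 cells it raised 6 and lowered 12. The stretch from ZNF579 to ZNF581 (chr19:55576770-55645622) holds 6 tested genes in a row, looked at after their values were seen. In GPD1 cells ZNF579, ZNF524, ZNF580 and ZNF581 were called higher with metformin while ZNF865 and ZNF784 between them were called lower. In cluster 2, metformin in vector cells raised 6 and lowered 2 of 9 (median 0.32, against 0.01 for the 27 other tested protein-coding genes within its span). In cluster 7, metformin in GPD1 cells gave a median of 0.01 for the 6 tested ZNF genes and 0.70 for the 17 other tested protein-coding genes of the span. Of 20 pairs of neighbouring tested genes, metformin in vector cells changed 8 pairs in the same direction and 5 in opposite directions, and in GPD1 cells 7 and 5. The other pairs were not both called. Pairs of other genes were not counted, so whether ZNF neighbours differ from them was not tested. ZNF121, ZNF561 and ZNF562 lie in a row in cluster 2, and the first 2 were called higher with metformin in both kinds of cells while ZNF562 was called lower.

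The change with metformin went with the make-up of the transcript and with its level. Across the 48 genes, Spearman's rho between the log2 fold change in GPD1 cells and the GC content of the longest transcript was 0.49, with exon length −0.49 and with mean level 0.50. Over all tested genes the same values were 0.06, −0.24 and 0.20. In vector cells rho over the 48 genes was 0.35, −0.33 and 0.40. The 10 genes raised in GPD1 cells had a median transcript GC of 61.5% and the 26 lowered ones 45.2%. Their median levels were 7.69 and 1.36 FPKM and their median exon lengths 3006.5 and 5578 bases, so GC, level and length cannot be told apart here. Some of the low, lowered genes passed the filter through the untreated groups, so their fall was built in. These are correlations across genes, which share the libraries and are not independent replicates. Removing a GC trend or a length trend per library left 23 lowered genes in GPD1 cells without the length trend and 27 without the GC trend, and 10 raised genes in both.

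Genes that KRAB zinc finger proteins work through were mostly lower with metformin. Of 22 tested corepressor and heterochromatin genes, metformin raised 0 and lowered 19 in GPD1 cells (median −0.54), where 48.0% of all tested genes were lower, and raised 2 and lowered 16 in vector cells (median −0.53), where 43.3% were lower. Over the 4 scalings, 0 to 4 were raised and 12 to 22 lowered in GPD1 cells, and 0 to 5 raised and 13 to 20 lowered in vector cells. TRIM28, the shared corepressor, averaged 42.5 ± 0.624 FPKM in GPD1 metformin, 44.2 ± 0.394 in vector metformin, 60.0 ± 5.39 in GPD1 untreated and 55.5 ± 0.737 FPKM in vector untreated libraries (SD, n = 3). It was lower with metformin in GPD1 cells (−0.49 ± 0.06, limma adjusted p = 1.33e-05) and in vector cells (−0.32 ± 0.06, limma adjusted p = 0.000318), and both calls ended with upper-quartile factors. SETDB1, the histone methyltransferase it brings in, averaged 2.57 FPKM in GPD1 metformin, 3.87 in vector metformin, 3.59 in GPD1 untreated and 3.97 FPKM in vector untreated libraries. It was lower with metformin in GPD1 cells (−0.36 ± 0.05, adjusted p = 6.17e-05) and not called in vector cells (−0.03 ± 0.05, adjusted p = 0.61).

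In both kinds of cells UHRF1, FAM208A and CBX5 had the largest decreases of this list. UHRF1, which guides DNA methylation to new strands, averaged 0.743 FPKM in GPD1 metformin, 0.616 in vector metformin, 6.79 in GPD1 untreated and 8.96 FPKM in vector untreated libraries. Metformin changed it by −2.16 ± 0.07 in GPD1 cells and −2.62 ± 0.07 in vector cells. UHRF1 was below 1 FPKM in both metformin groups and passed the filter through the untreated groups, so a higher level there was built in. Also below 1 FPKM were FAM208A in vector metformin (0.727) and PPHLN1 (0.883) and SUV39H2 (0.543) in GPD1 metformin cells. FAM208A, the TASOR subunit of the HUSH silencing complex, changed by −1.56 ± 0.06 in GPD1 cells and −2.07 ± 0.06 in vector cells. For CBX5, an HP1 protein, the changes were −1.38 ± 0.05 in GPD1 cells and −1.82 ± 0.05 in vector cells. For DNMT1, the maintenance methyltransferase, they were −0.90 ± 0.05 in GPD1 cells and −1.48 ± 0.05 in vector cells. In GPD1 cells SMARCAD1 (−1.16), PPHLN1 (−1.01), HDAC1 (−0.96) and SUV39H1 (−0.93) changed by more than DNMT1. The genes raised in vector cells were DAXX, a histone chaperone (0.38 ± 0.10, adjusted p = 0.00696), and CBX1, another HP1 protein (0.16 ± 0.06, adjusted p = 0.0208), but with mitochondrial genes left out of the totals DAXX was no longer called and CBX1 was at −0.13. Under metformin, GPD1 raised 6 and lowered 8 of the 22 (median −0.05). Without metformin it raised 1 and lowered 7 (median −0.13). Whether these changes bear on the ZNF genes was not tested.

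Zinc finger genes elsewhere had medians of the same sign in GPD1 cells. Of 127 tested ZNF genes on other chromosomes, metformin raised 14 and lowered 78 in GPD1 cells (median −0.39), and raised 42 and lowered 54 in vector cells (median 0.01). Over all tested genes 26.1% were higher and 48.0% lower in GPD1 cells, and 31.3% and 43.3% in vector cells. Over the 4 scalings, 9 to 30 of the 127 were raised and 51 to 94 lowered in GPD1 cells. In vector cells 29 to 60 were raised and 37 to 64 lowered, and the balance turned to 60 raised and 37 lowered by median-ratio factors. GPD1 under metformin raised 11 and lowered 76 of them (median −0.34), and the interaction was higher for 10 and lower for 59 (median −0.28). The 638 other tested protein-coding genes of chromosome 19 had an interaction that was higher for 108 and lower for 189 (median −0.05). Of the 5 tested zinc finger genes of chromosome 19 with other names, 0 were higher and 3 lower in the interaction. The difference between these lists was not tested.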

How the data were processed

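The authors deposited 1 table of FPKM values for 58302 genes in 12 A549 libraries. The unit is inferred from the values and could be RPKM. CASAVA 1.8, HISAT2 2.1.0, edgeR and the builds GRCh38 and hg38 stand in the list of tools per the submitters' processing notes. Gene lengths and GC came from GENCODE release 29. Library depth was read from steps between low values (tolerance 0.02 of a step). Values were tested as log2(FPKM + 1) with limma 3.58.1 (R 4.3.3, trended variance, Benjamini-Hochberg adjustment over the 12607 genes averaging 1 FPKM or more), with 4 group means and no block. Genes named are up to 5 per direction and comparison with the largest change among called genes without overlap, the 5 highest, 5 with textbook roles and the corepressors; any others were chosen after their values were seen. The members and lists were chosen with earlier results of these data known. Same-numbered libraries did not deviate together. The script was tested on simulated data. Alternatives were other scalings, filters, pseudocounts, designs, trends and leaving out each library. Protein sequences were not used here.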

Additional observations from a re-analysis of the deposited data

Results flagged for a closer look

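The test of the interaction (limma, adjusted p under 0.05), which is the change with metformin in GPD1 cells minus that in vector cells, picked out 14 of the named ZNF genes. The values on the log2 scale were −1.65 for ZNF526, −1.57 for ZNF574, −1.47 for ZNF805, −1.32 for ZNF8, −1.19 for ZNF460, −1.02 for ZNF121, −0.84 for ZNF507, −0.70 for ZNF296, −0.59 for ZNF787, −0.49 for ZNF473, −0.38 for ZNF558, −0.35 for ZNF480, 0.28 for ZNF428 and 0.44 for ZNF414. Among the corepressor genes it picked out DAXX (−0.56), CBX1 (−0.42), SETDB1 (−0.33), EHMT2 (−0.22), CHD3 (0.23), CBX5 (0.44), UHRF1 (0.47), MORC2 (0.48), FAM208A (0.51) and DNMT1 (0.58). For the last 6 of these the change with metformin was a smaller decrease in GPD1 cells than in vector cells. Over all tested genes the interaction was called lower for 26.8% and higher for 19.1%. ZNF526, ZNF574, ZNF805, ZNF8, ZNF460, ZNF414 and ZNF428 were among the named genes through this same test, so their calls here are no separate result.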

How the results depend on the processing

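Counts are of ZNF genes called, and medians are of their log2 fold changes. Filters at 0.3 FPKM or none test more genes, so counts grow by construction; the cause of the other shifts was not tested. For metformin in vector cells, lowered genes numbered 76 with no filter, 47 at 0.3 FPKM and 44 with 0.3 FPKM and a pseudocount of 0.1 together. The median was 0.35 by median-ratio and 0.36 by upper-quartile factors, 0.030 without mitochondrial genes in the totals, −0.091 with no filter, −0.17 at 0.3 FPKM, 0.32 with the pseudocount of 0.1 and −0.38 with both. For metformin in GPD1 cells, upper-quartile factors gave 16 raised and 17 lowered genes, and lowered genes numbered 91, 66 and 68 with no filter, 0.3 FPKM and both. The median was −0.15 (median-ratio), −0.084 (upper-quartile), −0.52 (no mitochondrial genes), −0.18 (no filter), −0.38 (0.3 FPKM), −0.59 (pseudocount 0.1), −0.92 (both), −0.33 (length trend removed) and −0.41 (GC trend removed). For GPD1 under metformin, raised genes numbered 5 (median-ratio), 7 (upper-quartile), 5 (pseudocount 0.1) and 6 (both), and lowered genes 61 (no filter), 53 (0.3 FPKM) and 55 (both). The median was −0.42, −0.37, −0.10, −0.28, −0.76 and −0.67 with median-ratio, upper-quartile, no filter, 0.3 FPKM, pseudocount 0.1 and both. For GPD1 without metformin, raised genes numbered 2 with no filter and 2 with the GC trend removed, and lowered genes 27 (no filter), 9 (0.3 FPKM) and 2 (pseudocount 0.1). The median was 0.0078 (upper-quartile), −0.047 (no filter), −0.049 (0.3 FPKM) and −0.085 (both). For the interaction, positive calls numbered 4 (upper-quartile), 1 (no mitochondrial genes), 7 (no filter), 1 (both), 1 (replicate block) and 1 (length trend removed), and negative calls 34 (0.3 FPKM) and 37 (both). The median was −0.40, −0.32, −0.031, −0.18 and −0.76 with median-ratio, upper-quartile, no filter, 0.3 FPKM and pseudocount 0.1.

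Leaving out 1 library at a time gave 20 to 23 raised and 11 to 16 lowered genes for metformin in vector cells (median 0.15 to 0.26) and 9 to 10 raised and 23 to 27 lowered in GPD1 cells (−0.35 to −0.30). It gave 2 to 4 and 22 to 28 for GPD1 under metformin (−0.51 to −0.43), 1 to 4 and 3 to 5 without metformin (−0.029 to 0.042), and 1 to 2 and 19 to 23 for the interaction (−0.53 to −0.38). With the replicate number as a block, raised and lowered genes were 21 and 13 in vector cells, 9 and 26 in GPD1 cells, 3 and 26 under metformin, 3 and 3 without it, and 1 and 21 for the interaction. The correlation of deviations was −0.07 to 0.06 over 18 same-numbered pairs and −0.10 to 0.07 over 36 other pairs. Same-numbered libraries thus did not deviate together more than others. Whether they share a culture, day or batch is not given in the labels.

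Direction reversed for metformin without mitochondrial genes in the totals for ZNF121 (−0.061, GPD1 cells), ZNF428 (−0.013 in GPD1 cells, −0.20 in vector cells), CBX1 (−0.13, vector cells), CBX3 (−0.34 in GPD1 cells, −0.20 in vector cells) and HDAC2 (−0.23, GPD1 cells). With median-ratio factors it reversed for ZNF526 (0.29, GPD1 cells), CBX1 (0.070, GPD1 cells), HDAC2 (0.14, vector cells) and SETDB1 (0.17, vector cells). With upper-quartile factors it reversed in GPD1 cells for ZNF526 (0.42), ZNF558 (0.26), CBX1 (0.21), CHD3 (0.11), CHD4 (0.060) and MPHOSPH8 (0.10), in vector cells for HDAC2 (0.15) and SETDB1 (0.18), and under metformin for CHD3 (0.20), HDAC2 (0.17) and TRIM28 (0.18).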
